A study of Mus musculus with 6 samples.

Results

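The 29 genes described here are the cadherins that carry a number in their symbol, 23 genes, and the 6 catenins of the alpha, beta and delta families. The rule that picks them uses the gene symbol and no measured value, and the table holds 24972 genes. Of the 23 cadherins, 5 are type I classical cadherins, 13 are type II classical cadherins and the remaining 5 are other members of the superfamily. The RNA came from mouse cortex at postnatal day 7 (P7), with 3 libraries from Zmiz1f/f animals, used as wildtype, and 3 from Zmiz1f/f;Emx1Cre animals, labelled Zmiz1-KO. Both groups carried the floxed Zmiz1 allele. Emx1-Cre is active in progenitors of the dorsal telencephalon, which give rise to excitatory neurons and glia of the cortex, while cells that migrate in from elsewhere or belong to vessels and meninges keep the gene. Whether each library came from 1 animal is not stated, so p-values measure only the spread between these libraries. The comparison asked how cortical gene expression differed when Zmiz1, which encodes a transcriptional coregulator, was targeted.

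Classical cadherins are calcium-dependent adhesion proteins that span the membrane and bind cadherins on the neighbouring cell. Their cytoplasmic tail binds beta-catenin and a delta-catenin, and beta-catenin in turn binds alpha-catenin, which connects the complex to actin filaments. In developing cortex this complex holds radial glia together at the ventricular surface and later takes part in neuronal migration and synapse formation, and type II cadherins are known for expression that differs between areas and layers.

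The values were normalized counts, gene-level read counts scaled by factors that differed between libraries and, slightly, between genes. They summed to 32661979 to 33239707 per library. Zmiz1 itself had 8119, 7929 and 7461 normalized counts in wildtype, against 9944, 9779 and 9660 under the Zmiz1-KO label. It was therefore higher under the label of the knockout, by 0.32 on the log2 scale (SE 0.040, limma adjusted p = 0.00125). The value of the whole gene does not show the deleted part. By quantitative PCR, the study itself reported the opposite direction, with this gene lower in its knockout samples. Why the directions differ was not tested. Emx1, a gene of the same progenitors and excitatory neurons, had 818, 688 and 784 normalized counts in wildtype, against 532, 473 and 583 under the Zmiz1-KO label (log2 fold change -0.53, SE 0.090, limma adjusted p = 0.0150). Only the group labelled Zmiz1-KO carried Emx1Cre, and the part of that allele in the Emx1 difference was not tested. Higher and lower are always said of the libraries labelled Zmiz1-KO, relative to wildtype. Across the 15800 genes with at least 10 normalized counts in at least 3 libraries, 65 passed an adjusted p of 0.05 in limma, 26 higher (0.165%) and 39 lower (0.247%).

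P7 cortex carried a broad set of these genes, and 3 catenins stood at the top. Per kilobase (kb) of exon, the highest level was that of Ctnnb1, beta-catenin, at 5133 ± 69.9 normalized counts per kb in wildtype (SD, n = 3). Ctnna2, the neural alpha-catenin, followed at 1209 ± 10.9, and Ctnnd2, the delta-catenin of neurons, at 1101 ± 49.0 normalized counts per kb. The ranges of these 3 genes over all 6 libraries did not overlap each other.

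Among the cadherins, Cdh13 and Cdh2 led, with wildtype levels of 700 ± 51.3 and 726 ± 41.8 normalized counts per kb, and their ranges overlapped. Cdh13 encodes T-cadherin, which is anchored by a lipid and lacks the tail that binds catenins, and Cdh2 encodes N-cadherin, the main cadherin of the neural epithelium. Cdh4, Cdh8 and Cdh11 came next, at 352 ± 21.6, 382 ± 24.0 and 362 ± 24.1 normalized counts per kb in wildtype, and the ranges of neighbouring genes overlapped. Further down, neighbours from Cdh6 to Cdh10 overlapped in their ranges, with means over all libraries from 208 down to 152 normalized counts per kb. Cdh16, the kidney cadherin, was listed at 0 in every library, and Cdh17, Cdh19 and Cdh26 were too low to be tested. That left 25 of the 29 genes in the test, with all 6 catenins and 19 cadherins.

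**Figure D1:**
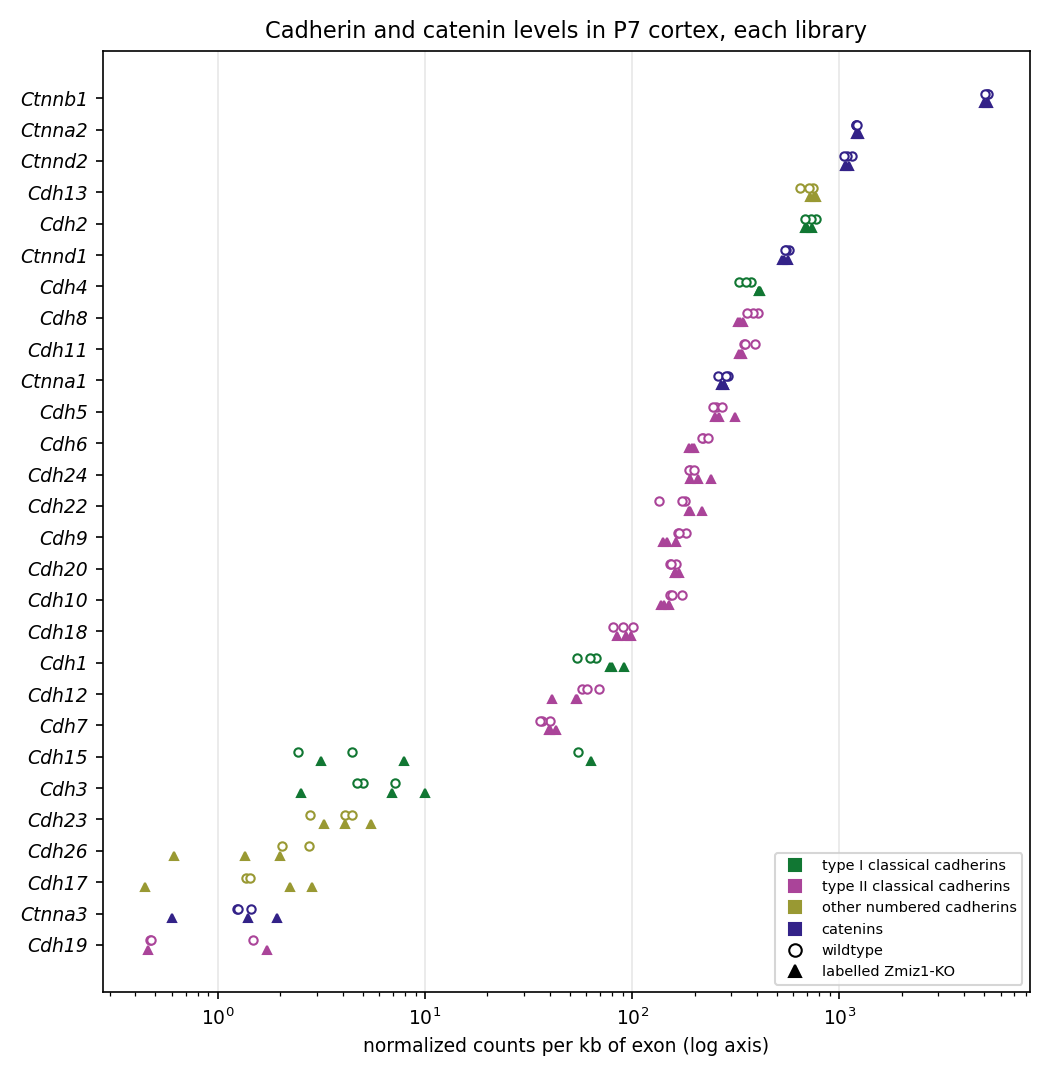
Level of each cadherin and catenin in each library, in normalized counts per kb of exon on a log axis, with open circles for wildtype and filled triangles for the libraries labelled Zmiz1-KO. Ctnnb1 lies above all others, Cdh13 and Cdh2 lead the cadherins, values of 0 are not drawn, and Cdh15 splits into 1 high and 2 low libraries in each group.

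No cadherin or catenin passed the adjusted p of 0.05 in limma (0 of 25, against 0.411% of all tested genes). In limma-voom it was 0 of 25 as well, against 0.354%. The study itself, testing with DESeq2, listed Cdh4 among its differentially expressed genes. At an unadjusted p under 0.05 there were 10 of 25 in limma, against 11% of all tested genes, and 10 of 25 in limma-voom, against 11.1%. In limma these were 4 with higher values, against 5.13% of all tested genes, and 6 with lower values, against 5.84%. Cdh4 and Cdh6 had an adjusted p under 0.1, against 0.671% of all tested genes. For 9 of the 25 genes, the 3 values of one group all lay above the 3 of the other, against 16.3% of all tested genes, and with 3 libraries a group an exact two-sided permutation test cannot give a p below 0.1. These 9 were all classical cadherins: Cdh1, Cdh4 and Cdh22 lay higher in the libraries labelled Zmiz1-KO (8.1% of all tested genes did), and Cdh6, Cdh8, Cdh9, Cdh10, Cdh11 and Cdh12, all of type II, lay lower (8.16%).

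**Figure D2:**
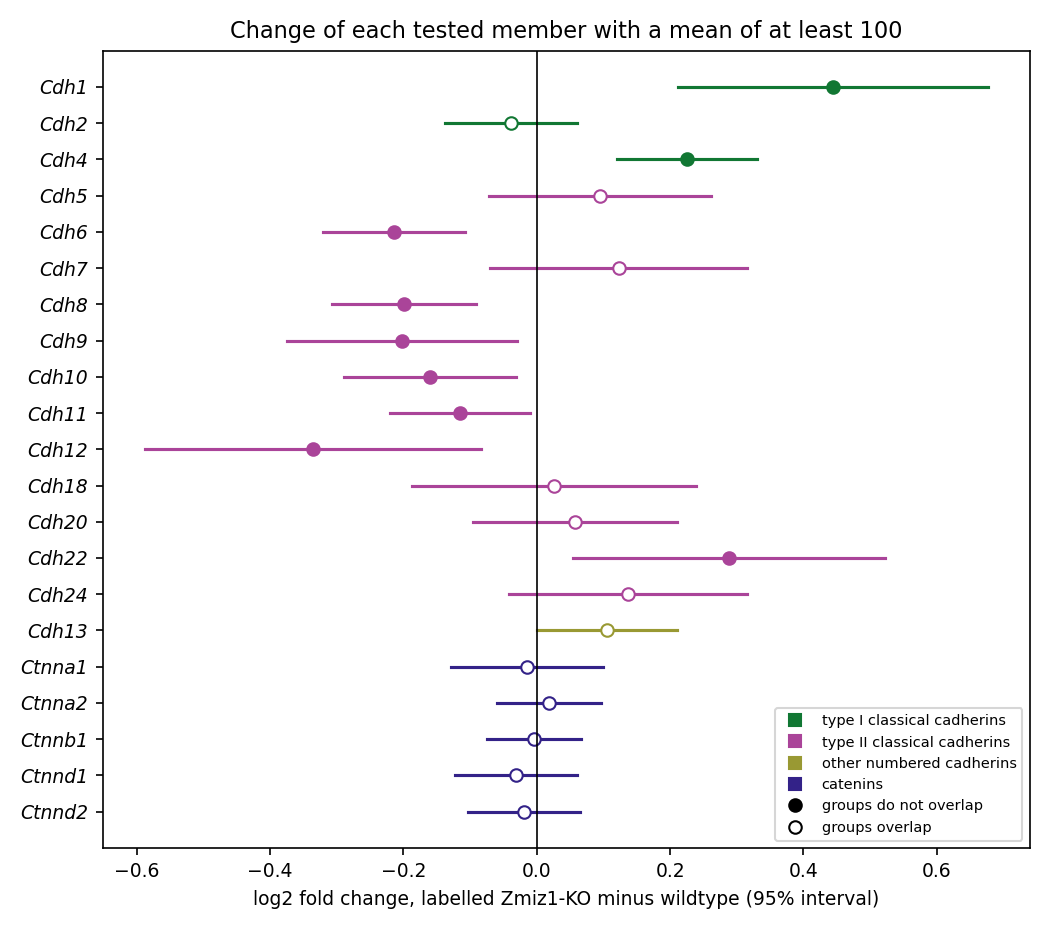
Log2 fold change of each tested gene with a mean of at least 100 normalized counts, labelled Zmiz1-KO minus wildtype, with its 95% interval from limma and coloured by family. Catenins sit close to 0, Cdh12 is lowest at -0.34 and Cdh1 highest at 0.44.

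Of the type I classical cadherins, all 5 were tested, and 2 lay higher without overlap in the libraries labelled Zmiz1-KO (against 8.1% of all tested genes). The median log2 fold change was 0.23, against -0.00018 over all tested genes. That median of 5 genes was 0.0031 without wildtype replicate 1 and -0.0093 without wildtype replicate 3. Cdh4, R-cadherin, first described in retina, lies on chromosome 2 (GRCm38, 179442431 to 179899373). It had 2391, 2703 and 2569 normalized counts in wildtype, against 2959, 3010 and 2978 under the Zmiz1-KO label. All 3 of the latter lay above the highest wildtype library, and they differed from each other by less than the wildtype libraries did. The means were 2554 ± 157 and 2983 ± 25.8 normalized counts (SD, n = 3), a log2 fold change of 0.23 (SE 0.050, limma adjusted p = 0.0627), or 16.9% with a 95% interval of 8.71 to 25.7%. Without wildtype replicate 2, the library with the highest wildtype value, the adjusted p was 0.0310 in limma, and in the other 5 fits with 1 library left out it was 0.0705 to 0.294.

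Cdh1, E-cadherin, the cadherin of epithelia, lies on chromosome 8 (106603351 to 106670246). It was low, with 306, 287 and 247 normalized counts in wildtype, against 358, 418 and 366 under the Zmiz1-KO label. The lowest of the latter was above the highest wildtype value, with a log2 fold change of 0.44 (SE 0.11, limma adjusted p = 0.116). Cdh2 had 6197, 5853 and 5523 normalized counts in wildtype, against 5629, 5939 and 5533 under the Zmiz1-KO label. These ranges overlapped, and the log2 fold change was -0.04 (SE 0.047, limma adjusted p = 0.835), with a 95% interval of -9.06 to 4.28% for the difference.

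The other type I cadherins were scarce. Cdh3, P-cadherin, had a mean of 24.7 ± 5.93 normalized counts in wildtype, against 28.4 ± 16.4 under the Zmiz1-KO label (SD, n = 3), with overlapping ranges. Cdh15, M-cadherin of muscle and cerebellar granule cells, had 7.89, 178 and 14.5 normalized counts in wildtype, against 25.8, 206 and 10.3 under the Zmiz1-KO label. One library in each group, replicate 2, was far above its 2 partners, so the group difference of 0.45 on the log2 scale had a SE of 1.79.

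Of the 13 type II classical cadherins, 12 were tested, 6 lay lower without overlap (against 8.16% of all tested genes), 1 lay higher without overlap (against 8.1%) and 5 overlapped. Their median log2 fold change was -0.04, and their summed level was 14262 to 15090 normalized counts in wildtype, against 13508 to 13897 under the Zmiz1-KO label. Cdh6 (chromosome 15, 13028701 to 13173675) had 1991, 1969 and 2096 normalized counts in wildtype, against 1747, 1785 and 1689 under the Zmiz1-KO label. The highest of the latter lay below the lowest wildtype value, with means of 2019 ± 68.1 and 1740 ± 47.9 (SD, n = 3). The log2 fold change was -0.21 (SE 0.050, limma adjusted p = 0.0960), or -13.8% with a 95% interval of -19.9 to -7.16%.

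Cdh8, a type II cadherin with a known part in the sorting of neuronal connections, lies on chromosome 8 (99024471 to 99416471). It had 3141, 2971 and 2769 normalized counts in wildtype, against 2570, 2653 and 2506 under the Zmiz1-KO label. The groups did not overlap, although wildtype replicate 3 was closer to the libraries labelled Zmiz1-KO than to wildtype replicate 1. Its log2 fold change was -0.20 (SE 0.051, limma adjusted p = 0.131), or -12.9% with a 95% interval of -19.2 to -6.10%.

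Cdh11, known from mesenchyme and bone as well as brain, had 3472, 3075 and 3132 normalized counts in wildtype, against 3005, 2995 and 2927 under the Zmiz1-KO label (log2 fold change -0.11, SE 0.050, limma adjusted p = 0.402). The gap between the groups, from 3075 down to 3005 normalized counts, was small beside the lead of wildtype replicate 1, without which the log2 fold change was -0.061. Cdh12 had 434, 362 and 383 normalized counts in wildtype, against 257, 339 and 343 under the Zmiz1-KO label (log2 fold change -0.34, SE 0.12, limma adjusted p = 0.294). Here 1 library labelled Zmiz1-KO, replicate 1, stood well below the other two, and without it the log2 fold change was -0.20.

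Cdh9, a cadherin of hippocampal mossy fibre synapses, had 647, 589 and 597 normalized counts in wildtype, against 574, 520 and 500 under the Zmiz1-KO label (log2 fold change -0.20, SE 0.082, limma adjusted p = 0.360). Cdh10 had 1751, 1533 and 1569 normalized counts in wildtype, against 1520, 1392 and 1426 under the Zmiz1-KO label (log2 fold change -0.16, SE 0.061, limma adjusted p = 0.327). In both genes the first replicate was the highest of its group, and the nearest values of the groups lay close together. Without wildtype replicate 1, the log2 fold change of Cdh10 was -0.10.

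Cdh22 was the type II cadherin with the opposite direction, at 497, 668 and 646 normalized counts in wildtype, against 693, 805 and 701 under the Zmiz1-KO label. The groups were close, 668 against 693 at the nearest values, with wildtype replicate 1 far below its partners, and the log2 fold change was 0.29 (SE 0.11, limma adjusted p = 0.340), or 0.15 without that library. The remaining tested type II cadherins, Cdh5, Cdh7, Cdh18, Cdh20 and Cdh24, overlapped between the groups, with log2 fold changes from 0.03 to 0.14. Cdh5, VE-cadherin of endothelial junctions, had 1065, 1139 and 1026 normalized counts in wildtype, against 1100, 1312 and 1050 under the Zmiz1-KO label (limma adjusted p = 0.722). The 8 other endothelial markers summed to 9104 to 9559 normalized counts in wildtype, against 8768 to 9325 under the Zmiz1-KO label, also overlapping.

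**Figure D3:**
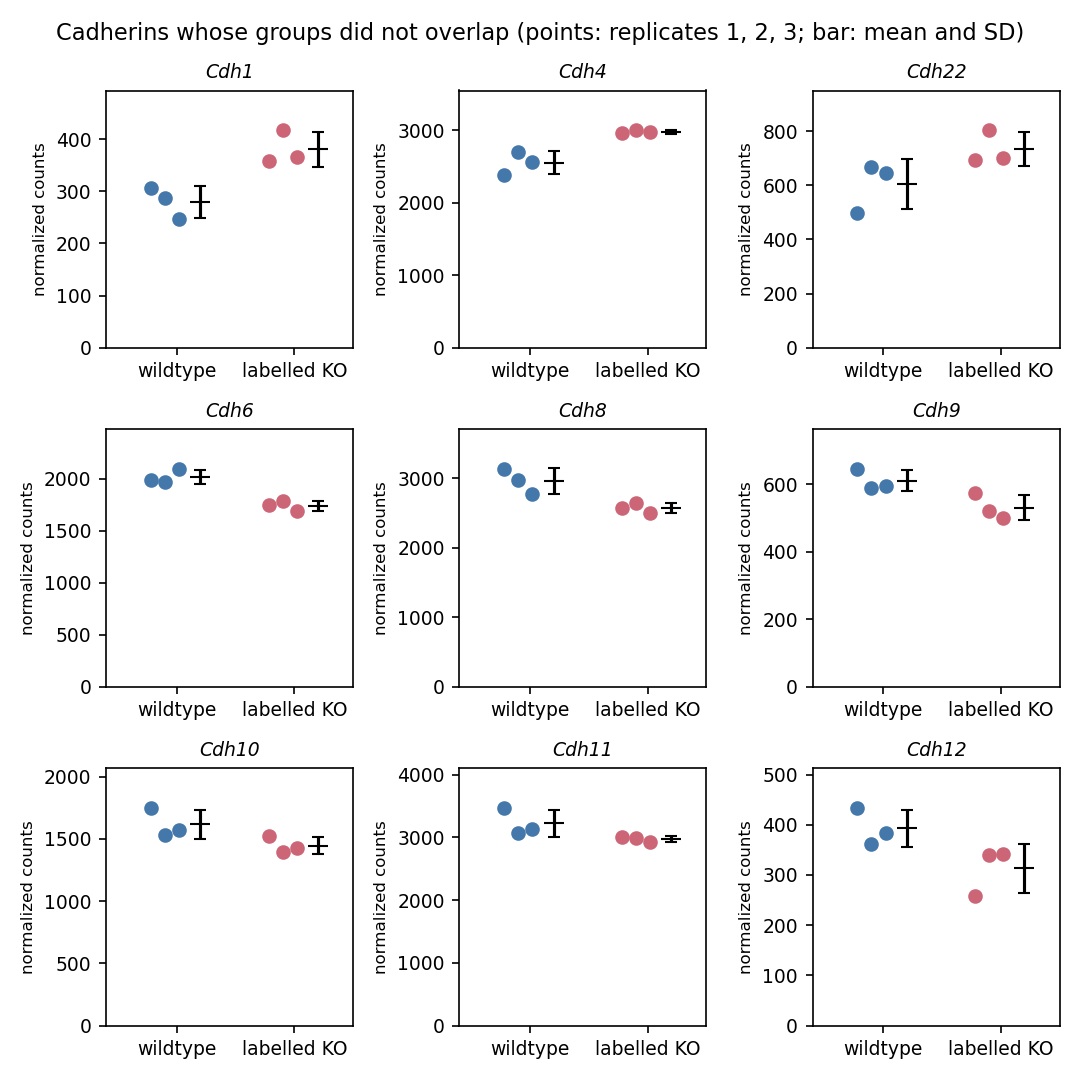
Normalized counts in each library for the 9 cadherins whose groups did not overlap, with the mean and SD beside the points and each axis starting at 0. Cdh1, Cdh4 and Cdh22 are higher in the libraries labelled Zmiz1-KO and the 6 type II cadherins from Cdh6 to Cdh12 are lower, by gaps that are small beside the level of most of them.

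The table of RefSeq promoters (GRCm38.p6) held 24 windows for 18 of the 29 genes. The 250 bases before the RefSeq start are printed for all 6 cadherins without overlap between groups that have a window, 1 with higher values, Cdh22, and 5 with lower values. The windows of Cdh10 and Cdh12 lie wholly inside the gene models (GENCODE M21) used for the levels per kb, not before them. Cdh22 (chr2:165234738-165234987), Cdh8 (chr8:99416472-99416721) and Cdh6 (chr15:13173676-13173925) are on the minus strand, and Cdh9 (chr15:16728665-16728914), Cdh10 (chr15:18820079-18820328) and Cdh12 (chr15:21111202-21111451) on the plus strand. The letters run 5′ to 3′ along the gene, and capitals mark the GC box, GGGCGG, read on both strands.
Cdh22: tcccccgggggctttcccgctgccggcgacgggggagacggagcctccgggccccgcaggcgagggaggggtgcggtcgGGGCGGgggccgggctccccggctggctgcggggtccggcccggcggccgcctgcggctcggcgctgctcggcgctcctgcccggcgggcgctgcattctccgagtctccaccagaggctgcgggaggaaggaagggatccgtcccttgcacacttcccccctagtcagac
Cdh8: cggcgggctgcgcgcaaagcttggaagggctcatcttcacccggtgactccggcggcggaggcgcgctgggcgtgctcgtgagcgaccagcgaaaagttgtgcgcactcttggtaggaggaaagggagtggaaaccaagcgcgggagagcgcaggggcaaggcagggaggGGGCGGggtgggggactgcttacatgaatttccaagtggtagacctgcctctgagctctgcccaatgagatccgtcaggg
Cdh6: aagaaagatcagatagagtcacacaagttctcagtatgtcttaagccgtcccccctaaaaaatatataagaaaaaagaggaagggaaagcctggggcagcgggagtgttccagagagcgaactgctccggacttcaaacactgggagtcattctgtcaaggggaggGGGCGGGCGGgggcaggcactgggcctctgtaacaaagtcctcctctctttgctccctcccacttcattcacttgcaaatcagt
Cdh9: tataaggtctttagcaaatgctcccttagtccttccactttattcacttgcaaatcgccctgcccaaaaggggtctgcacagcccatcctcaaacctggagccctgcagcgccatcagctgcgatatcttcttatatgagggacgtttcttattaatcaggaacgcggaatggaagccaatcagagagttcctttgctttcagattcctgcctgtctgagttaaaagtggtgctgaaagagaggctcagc
Cdh10: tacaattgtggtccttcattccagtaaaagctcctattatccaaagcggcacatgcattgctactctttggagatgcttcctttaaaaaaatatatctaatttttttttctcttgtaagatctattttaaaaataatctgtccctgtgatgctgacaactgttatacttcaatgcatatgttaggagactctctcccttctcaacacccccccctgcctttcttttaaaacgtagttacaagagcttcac
Cdh12: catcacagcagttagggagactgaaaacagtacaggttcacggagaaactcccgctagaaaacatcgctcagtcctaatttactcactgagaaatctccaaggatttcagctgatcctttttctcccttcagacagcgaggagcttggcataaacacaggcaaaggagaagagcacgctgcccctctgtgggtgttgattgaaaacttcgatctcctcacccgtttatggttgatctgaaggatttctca
The GC box was in 3 of these 6 windows, at 171 bases before the start in Cdh22, at 80 in Cdh8, and at 84 and 80 in Cdh6, where the copies overlap, and it was not in those of Cdh9, Cdh10 and Cdh12. It was in 9 of the 24 windows, or 37.5%, against 32.7% of all windows, and the 9 include windows of Ctnnb1, Ctnna2, Ctnna3, Cdh15 and Cdh24, whose groups overlapped. Base composition ranged from 36.8% G and C with 2 CpG in Cdh10 to 77.6% with 30 CpG in Cdh22, beside medians of 52.4% and 6 over all windows. The letters CACCTG (in 17.2% of all windows), TAATTA (4.84%), CTTTGA (13.8%) and TGANTCA (6.75%) were in none of the 6 windows on either strand.

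Position in the genome was shared by several of these genes. Cdh6, Cdh9, Cdh10, Cdh12 and Cdh18 follow each other on chromosome 15 between 13028701 and 23474418, a stretch of 10.4 Mb with only 7 tested genes. The first 4 of them lay lower without overlap in the libraries labelled Zmiz1-KO, against 8.16% of all tested genes, and none was called in limma. Cdh18 overlapped, at 413 ± 46.3 and 420 ± 31.0 normalized counts (SD, n = 3). The other two tested genes of the stretch were low: Acot10 overlapped between groups and the pseudogene Hnrnpa1l2-ps2 lay higher without overlap (8.1% of all tested genes did). Chromosome 8 carried 8 of the 29 genes, among them Cdh1, which lay higher, and Cdh8 and Cdh11, which lay lower.

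As a whole, the classical cadherins kept their summed level, with 3428 ± 95.2 normalized counts per kb in wildtype, against 3418 ± 98.6 under the Zmiz1-KO label (SD, n = 3). Within that sum, Cdh2 held 20.5 to 22.1% in every library. Cdh4 held 10.3 ± 0.690% in wildtype, against 12.0 ± 0.260% under the Zmiz1-KO label, and Cdh8 held 11.2 ± 0.464% and 9.74 ± 0.0810%. Their order thus differed between the groups by mean share, Cdh8 ahead of Cdh4 in wildtype and Cdh4 ahead of Cdh8 in the libraries labelled Zmiz1-KO. Type I genes together held 34.0 ± 0.948% in wildtype, against 36.0 ± 0.896% under the Zmiz1-KO label.

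Of the cadherins outside the classical families, 2 of 5 were tested. Cdh13 had 8353, 7227 and 8000 normalized counts in wildtype, against 8501, 8685 and 8149 under the Zmiz1-KO label. These overlapped, since wildtype replicate 1 lay above the lowest library labelled Zmiz1-KO, and the log2 fold change was 0.11 (SE 0.049, limma adjusted p = 0.452), or 0.046 without wildtype replicate 2. Cdh23, a component of the tip links of hair cells, had 64.2 ± 14.8 normalized counts in wildtype, against 72.7 ± 19.3 under the Zmiz1-KO label (SD, n = 3), also overlapping.

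The 6 catenins overlapped between the groups without exception, and their median absolute log2 fold change was 0.02, against 0.07 over all tested genes, which were not matched for level. Ctnnb1, which also acts in the nucleus as the coactivator of Wnt signalling, had 26774, 26939 and 26244 normalized counts in wildtype, against 26721, 26968 and 26042 under the Zmiz1-KO label. Replicate 3 was lowest and replicate 2 highest in both groups, and the 95% interval of the difference ran from -5.00 to 4.66% (limma adjusted p = 0.982). In this gene, 11.1% of the 75-base stretches are shared with Ulk4, which overlaps it, so that part of the reads could be assigned either way.

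Ctnna2 had 8395, 8320 and 8472 normalized counts in wildtype, against 8652, 8321 and 8538 under the Zmiz1-KO label (95% interval of the difference -4.03 to 6.87%, limma adjusted p = 0.908). Ctnna1, the alpha-catenin of epithelia and of most other cells, had 1670, 1867 and 1814 normalized counts in wildtype, against 1782, 1777 and 1730 under the Zmiz1-KO label (interval -8.57 to 7.09%, limma adjusted p = 0.951). Ctnna3, the alpha-catenin of heart and testis, was close to the filter, at 8.90, 10.5 and 9.02 normalized counts in wildtype, against 4.35, 13.9 and 10.1 under the Zmiz1-KO label. The ratio of Ctnna2 to Ctnna1, in normalized counts per kb, stayed between 4.12 and 4.65 in all 6 libraries.

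Ctnnd2 had 11904, 11267 and 10905 normalized counts in wildtype, against 11476, 11024 and 11104 under the Zmiz1-KO label (interval -6.93 to 4.60%, limma adjusted p = 0.910). Ctnnd1, p120-catenin, which holds cadherins at the membrane, had 4190, 4025 and 4003 normalized counts in wildtype, against 3939, 4135 and 3884 under the Zmiz1-KO label (interval -8.11 to 4.23%, limma adjusted p = 0.859). For Ctnnd1, 54.5% of the 75-base stretches are shared with the overlapping gene model Gm28635, and its level is uncertain to that extent.

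**Figure D4:**
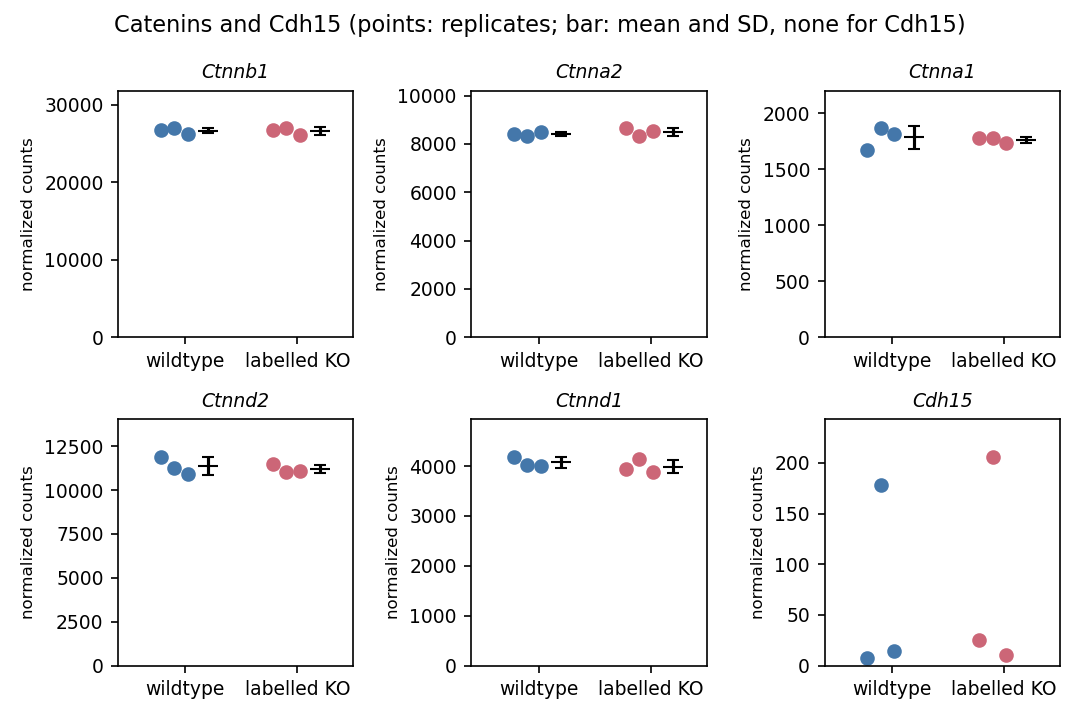
Normalized counts of 5 catenins and of Cdh15 in each library, on axes that start at 0, with the mean and SD beside the points except for Cdh15. The catenins overlap between wildtype and the libraries labelled Zmiz1-KO, and Cdh15 is high in replicate 2 of each group, at 178 and 206 normalized counts.

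The partners of these proteins gave no call at an adjusted p of 0.05 in limma in any of 5 lists. Among 24 tested adherens junction partners, 3 had an unadjusted p under 0.05, against 11% of all tested genes, and 11 had a positive and 13 a negative log2 fold change. Plekha7, which binds p120-catenin at junctions, had the lowest p, with 600, 773 and 683 normalized counts in wildtype, against 813, 891 and 810 under the Zmiz1-KO label (log2 fold change 0.30, SE 0.087, limma adjusted p = 0.198). Of the 16 tested genes of the beta-catenin destruction complex and its nuclear partners, 1 had an unadjusted p under 0.05, 9 a positive and 7 a negative log2 fold change. This was Apc, the scaffold of that complex, with 30377, 32478 and 31032 normalized counts in wildtype, against 27435, 29416 and 27333 under the Zmiz1-KO label (log2 fold change -0.16, SE 0.038, limma adjusted p = 0.107). Its 3 values labelled Zmiz1-KO lay below all wildtype values, and without replicate 2 of the group labelled Zmiz1-KO the gene passed in limma, as it did in none of the other 5 fits with 1 library left out.

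Of 11 tested beta-catenin target genes, none had an unadjusted p under 0.05 in limma, and the lowest p was that of Sp5, a transcription factor induced by Wnt signalling, with 31.1, 49.96 and 60.8 normalized counts in wildtype, against 63.2, 76.1 and 57.7 under the Zmiz1-KO label (log2 fold change 0.51, SE 0.26, limma adjusted p = 0.505). The groups of Sp5 overlapped. In the atypical cadherin superfamily, 3 of 19 tested genes had an unadjusted p under 0.05, all 3 lower (against 5.84% of all tested genes), while 11 had a positive and 8 a negative log2 fold change, with a median of 0.023. Among the 3, Fat4, a giant cadherin that binds Dchs1 between neighbouring cells, had 3115, 2968 and 3150 normalized counts in wildtype, against 2616, 2819 and 2744 under the Zmiz1-KO label (log2 fold change -0.17, SE 0.047, limma adjusted p = 0.153). Among the 10 delta protocadherins, 8 had a negative log2 fold change, against 50.1% of all tested genes, and 2 had an unadjusted p under 0.05, against 11%. Pcdh20 had 576, 670 and 509 normalized counts in wildtype, against 392, 505 and 452 under the Zmiz1-KO label (log2 fold change -0.38, SE 0.11, limma adjusted p = 0.216).

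Markers of several cell types differed between the same libraries. For the counts in this and the following paragraphs, 0.165% of all tested genes were called higher and 0.247% lower in limma. An unadjusted p under 0.05 in limma was reached by 11% of all tested genes. The summed level of 7 upper-layer neuron markers was 21824 to 25419 normalized counts in wildtype, against 18968 to 20244 under the Zmiz1-KO label, and 3 of the 7 fell in limma, Rorb by 0.43, Pou3f2 by 0.27 and Lhx2 by 0.26 on the log2 scale. The 8 deep-layer markers summed to 22255 to 22721 and 22916 to 23490 normalized counts, with 0 of 8 called in limma and 2 at an unadjusted p under 0.05, Bcl11b having the lowest p (log2 fold change 0.15). Only the sum of the deep-layer markers was higher, since 4 of the 8 had a positive and 4 a negative log2 fold change, with a median of 0.00037. The 10 interneuron markers, of cells that do not derive from Emx1 progenitors, summed to 18517 to 22862 and 24034 to 25847 normalized counts, with 0 of 10 called in limma, 7 at an unadjusted p under 0.05 and Sst having the lowest p (log2 fold change 0.20). In bulk tissue, fewer cells of a type and less RNA per cell cannot be told apart.

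The 10 striatal markers summed to 15098 to 19149 normalized counts in wildtype, against 19294 to 21457 under the Zmiz1-KO label, with Drd2 having the lowest p (log2 fold change 0.50), 0 of 10 called in limma and 2 at an unadjusted p under 0.05. The 8 markers of meninges and fibroblasts, tissue known to express Cdh1 and Cdh11, summed to 10867 to 12490 and 13456 to 14565 normalized counts, and Col1a2 rose by 0.32 on the log2 scale (1 of 8 called in limma). The 8 oligodendrocyte lineage markers summed to 16921 to 18838 and 15113 to 15764 normalized counts, and Olig1 fell by 0.32 on the log2 scale (1 of 8 called in limma). None of the markers in these 6 lists was at 0 in any library. The part of these differences in those of the cadherins was not tested.

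Sums of the astrocyte, endothelial, pericyte, microglial and cycling-cell markers overlapped between the groups, with 1 call in limma, Aqp4, which fell by 0.29 on the log2 scale. Among the uncalled lists, the genes with the lowest p were Slco1c1 (log2 fold change -0.20), Vtn (0.18), P2ry12 (-0.33) and Top2a (0.09). The 6 pericyte markers, with Vtn among them, had 3 positive and 3 negative log2 fold changes and a median of -0.059. The 8 choroid plexus markers varied most, from 322 to 8472 normalized counts in wildtype, against 403 to 4897 under the Zmiz1-KO label, and Kl had the lowest p of that list (log2 fold change -0.40).

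**Figure D5:**
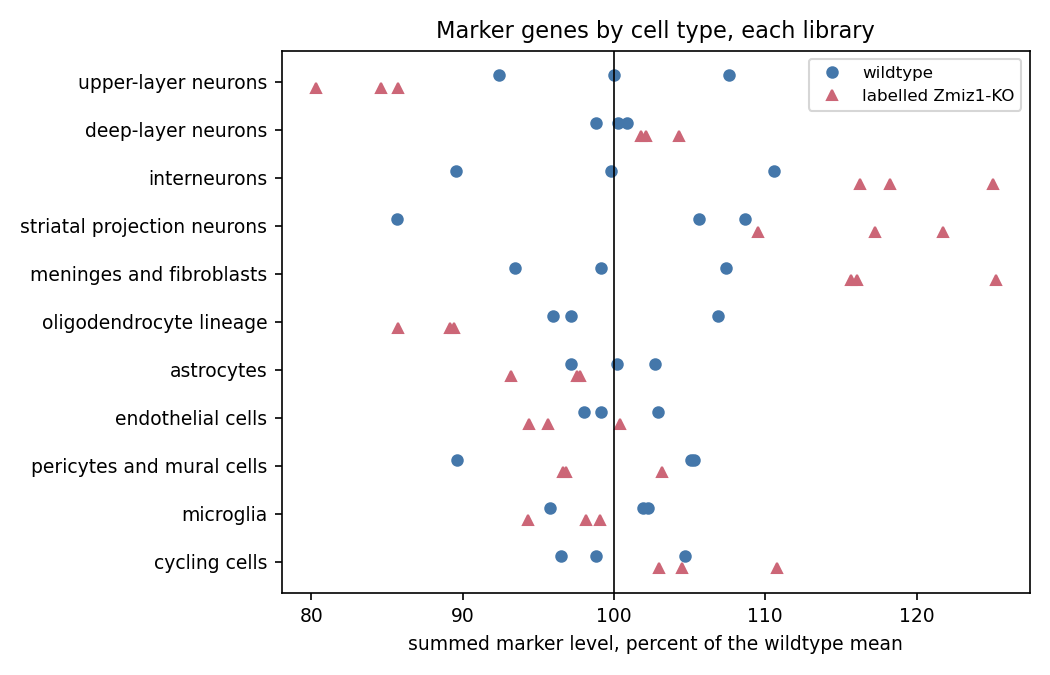
Summed level of the marker genes of 11 cell types in each library, as percent of the wildtype mean of the same sum. The sums of upper-layer and oligodendrocyte markers lie lower, and those of deep-layer (with 4 of 8 genes positive), interneuron, striatal and meningeal markers higher, in all 3 libraries labelled Zmiz1-KO, while the other 5 sums overlap.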

How the data were processed

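Libraries were made with the TruSeq RNA v2 kit, which does not keep strand. For the study, STAR in BaseSpace mapped reads to mm10, and the authors normalized the gene-level counts with DESeq2. The authors deposited the scaled signal values, called normalized counts here, with 1 column per library. Raw counts were not used here, and whole reads could not be recovered, because the value of 1 read differed slightly between genes. Low values fell near multiples of 1.83 to 2.11 per library. This puts the depth near 15495006 to 17858811 reads or read pairs per library, so genes of few reads carry a large counting error. Whether such a step stands for a read or a read pair was not tested.

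Genes with at least 10 normalized counts in at least 3 libraries were tested with limma 3.58.1 in R 4.3.3 (moderated test with trend and robust options on log2(value + 1), two-sided, Benjamini-Hochberg over all 15800 genes). Fold changes are on that scale and understate those of low genes. Levels per kb used the union of exons in GENCODE M21, in which 24490 genes matched by symbol. Only the limma fit was tested on simulated data.

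The genes and the lists of partners and cell type markers were chosen with earlier results of these data known. Values in every library are given for the catenins, the 5 cadherins with the highest level per kb and every gene without overlap between groups. From each other list, the genes called or, failing that, the gene with the lowest p were named. Cdh15, Acot10, Hnrnpa1l2-ps2 and the GC box were chosen after values or sequences were seen. Whether replicate numbers pair libraries across groups is not stated. Deviations from the group mean correlated at -0.0051, -0.11 and -0.0063 between libraries with the same number. Low correlations over all tested genes cannot exclude a pairing that affects some genes. Alternatives were other scalings, pseudocounts, filters and models, a replicate block and leaving out each library.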

Additional observations from a re-analysis of the deposited data

How the results depend on the processing

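The count of 65 genes over the whole table was 17 without the robust option, 168 with a replicate block (1.06% of the tested genes), 106 at an adjusted p of 0.1 and 12 to 152 with 1 library left out. It was 12 without replicate 3, 17 without replicate 1 and 152 without replicate 2 of the libraries labelled Zmiz1-KO, and 30 without wildtype replicate 1. Without both libraries numbered 2, an alternative chosen after seeing the data, it was 240. The count of cadherins and catenins called was 0, and it was 2 with the replicate block (Cdh4 and Cdh8, limma adjusted p = 0.0222 and 0.0453), 2 at an adjusted p of 0.1, 0 to 1 with 1 library left out (Cdh4, without wildtype replicate 2) and 2 without both libraries numbered 2 (Cdh4 and Cdh6). The count over the 5 lists of partners was 0, 1 with the replicate block, 0 to 1 with 1 library left out (without replicate 2 of the libraries labelled Zmiz1-KO) and 2 without both libraries numbered 2, Apc in each case and Fat4 in the last. The count of 9 tested cadherins and catenins without overlap was 9 to 12 with 1 library left out, when 24.0 to 31.4% of all tested genes did not overlap. Catenins were among them in some of these fits, such as Ctnna2 and Ctnnd1 without replicate 2 of the libraries labelled Zmiz1-KO. Over those fits, the limma adjusted p ranged from 0.0310 to 0.294 for Cdh4, 0.0550 to 0.431 for Cdh6, 0.0703 to 0.497 for Cdh8 and 0.129 to 0.334 for Cdh1. Signs turned for genes near 0: Ctnnb1 was 0.0016 in limma-voom and 0.0020 with upper-quartile scaling, and Ctnna1 was 0.013 without both libraries numbered 2. With 1 library left out the log2 fold change ran from -0.75 to 1.76 for Cdh15, -0.080 to 0.0031 for Cdh2, -0.38 to 0.57 for Cdh3, -0.048 to 0.015 for Ctnnd2, -0.062 to 0.019 for Ctnna1, -0.015 to 0.010 for Ctnnb1, -0.055 to 0.11 for Cdh18, -0.031 to 0.35 for Cdh23, -0.16 to 0.30 for Ctnna3 and -0.0012 to 0.16 for Cdh5. The cause of these changes was not tested. Cdh3, Cdh23 and Ctnna3 had few reads, which limits the precision of their values.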

Other observations

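Cdh15 stood out for a contrast that the groups do not explain, and this was noticed after its values were seen. Replicate 2 of wildtype and replicate 2 of the libraries labelled Zmiz1-KO had 178 and 206 normalized counts, while the other 4 libraries had 7.89 to 25.8. Of 14960 genes that reached 30 normalized counts somewhere, Cdh15 had the rank 2 for the log2 gap between the lower of these 2 libraries and the highest of the other 4, at 2.74. The rank 1 was held by Amd1, an enzyme of polyamine synthesis, with 491 and 408 normalized counts in those 2 libraries and 0 in the other 4. Gm12250 and Prdm12 followed with gaps of 1.83 and 1.249.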
